A study of Mus musculus with 15 samples.

Results

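RNA of CD103+CD11b+ DCs was set against that of CD103+CD11b- DCs, both sorted as CD64- cells from the lamina propria (LP) of the small intestine of wild type C57BL/6 mice. The comparison used 6 of the 15 arrays of the series, 3 for each population. Every array labelled with either population was taken, with no measured value used in the choice. The remaining arrays, 3 per population, held CD103-CD11b+ DCs, CD103-CD11b- DCs and CD64+ macrophages (mϕ), and are used to place the genes described here. The arrays of CD103-CD11b+ DCs were also among the 9 arrays of the linear models, so they bear on the SEs and p-values. Mice of both sexes aged 6 to 12 weeks were used in the study, and neither sex nor age is given for single arrays. The labels name no treatment. Peyer's patches were cut away and the epithelium was stripped before the tissue was digested. RNA came from 100000 sorted cells per population, and the number of mice behind each array is not given in the sources used here, so the p-values measure only the spread between these arrays.

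DCs take up antigen in the gut wall and carry it in lymph to the draining nodes, where they prime T cells. CD103 is the integrin αE chain, which pairs with β7 to bind E-cadherin on epithelial cells. CD11b is the integrin αM chain of complement receptor 3. CD103+CD11b- cells are classed as conventional type 1 DCs (cDC1), which depend on the transcription factor IRF8 and present antigen of dead cells to CD8+ T cells. CD103+CD11b+ cells are classed as conventional type 2 DCs (cDC2), which depend on IRF4 and are frequent in the small intestine.

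Each value below is a log2 signal as the authors normalised it, so that a difference of 1 is a 2-fold signal. The levels of different genes are not compared, since probes differ in brightness. Median signals of the 6 arrays were 4.75 to 4.82, and 7255 to 7420 genes per array exceeded 6. *Itgam*, which encodes CD11b, was at 9.44, 9.65 and 9.60 in CD103+CD11b+ DCs, against 4.76, 5.05 and 4.99 in CD103+CD11b- DCs. *Itgae*, which encodes CD103, was at 10.55, 10.24 and 10.35 in CD103+CD11b+ DCs, against 10.96, 10.86 and 10.87 in CD103+CD11b- DCs (log2 difference -0.51, SE 0.17, adjusted p = 0.0804). *Fcgr1*, which encodes CD64, lay between 3.69 and 3.99 on all 6 arrays.

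Markers of other cells were read on the same arrays. Of 17 mϕ markers, CD103+CD11b+ DCs had 3 higher (*Adgre1*, *Csf1r* and *Cd14*), and the mean level of the list was 5.47 to 5.74 in CD103+CD11b+ DCs, compared with 4.94 to 5.05 in CD103+CD11b- DCs, against 10.24 to 10.43 in mϕ. The median log2 difference of the list was 0.45, and its members ran from -0.09 (*Mertk*) to 2.53 (*Adgre1*). The mean of 13 B and plasma cell markers was 5.72 to 6.09 in CD103+CD11b+ DCs, compared with 5.53 to 5.59 in CD103+CD11b- DCs, with no member that passed, while *Mzb1* (1.12) passed with the replicate block. For 24 epithelial markers these means were 6.98 to 7.66 and 7.05 to 7.42, and only *Epcam* passed. The 13 pancreatic acinar markers varied between arrays of the same population, with means of 5.13 to 7.55 in CD103+CD11b+ DCs, compared with 4.75 to 8.59 in CD103+CD11b- DCs, and none passed. Without the array with the highest acinar mean in each of the 3 DC populations, 17 members of the gene and marker lists lost their call: *Cd14*, *Cd80*, *Dhrs3*, *Epcam*, *Ifih1*, *Il15*, *Il17ra*, *Il21r*, *Il7r*, *Ltb4r1*, *Ms4a4c*, *Nr4a3*, *Ptger3*, *Slc2a1*, *Tgfbi*, *Tlr1* and *Tnfsf9*. That fit had fewer arrays per population, so a call could be lost through a larger p-value alone. Among these genes, *Ms4a4c* (1.38), *Il7r* (1.22) and *Slc2a1* (1.17) kept a difference over 1. *Cd80* (0.85), *Tlr1* (0.96), *Il17ra* (0.97), *Il21r* (0.97) and *Dhrs3* (0.99) fell below it. The 19 immediate early and heat shock genes averaged 9.82 to 10.06 in CD103+CD11b+ DCs, compared with 9.09 to 9.65 in CD103+CD11b- DCs. *Fosl2* and *Dnajb4* were the members that passed, both higher, and the count was 5 without CD103+CD11b- replicate 2 and 4 without CD103+CD11b- replicate 3. Of 16 markers of T, NK and innate lymphoid cells *Il7r* and *Tbx21* were higher, with list means of 4.81 to 5.05 in CD103+CD11b+ DCs, compared with 4.41 to 4.87 in CD103+CD11b- DCs, and 11 neutrophil markers averaged 4.11 to 4.29 and 3.99 to 4.04 in the same populations, with none that passed. Of 16 stromal and endothelial markers *Pecam1* was higher, with list means of 5.01 to 5.55 in CD103+CD11b+ DCs, compared with 4.86 to 5.32 in CD103+CD11b- DCs. Of 8 monocyte markers *Ms4a4c* was higher and *Ccr2* lower, and of 10 plasmacytoid DC markers *Spib* was higher and *Ccr9* lower. The part of these cells and genes in the results below was not tested. A sorted population is a mixture at some level, and fewer cells of a type cannot be told apart from less RNA per cell.

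Across 19938 genes, CD103+CD11b+ DCs had 389 genes above CD103+CD11b- DCs (1.95%) and 264 below them (1.32%), together 3.28%. A gene passed where its limma adjusted p was below 0.01 and its log2 difference exceeded 1 in size. The median SD of a gene over 3 arrays, taken over all genes, was 0.099 in CD103+CD11b+ DCs, compared with 0.106 in CD103+CD11b- DCs. It is not the spread of the passing genes, which the limits select for a difference large beside their spread. Single passing genes spread more, such as *Cxcl2* with an SD of 1.13 in CD103+CD11b- DCs. A log2 difference over 2 was seen for 110 higher and 52 lower genes, a difference over 3 for 39 and 20, and a difference over 4 for 8 and 7. None exceeded 5. The median over all genes was 0.034. In none of the 653 genes did the arrays of the populations overlap, a state that 3340 genes (16.8%) showed with CD103+CD11b+ DCs above and 2723 (13.7%) with CD103+CD11b- DCs above. Probesets without a single gene symbol were tested apart, and 14 of 1621 with several symbols (0.864%) and 112 of 12146 without a listed symbol (0.922%) passed.

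**Figure D1:**
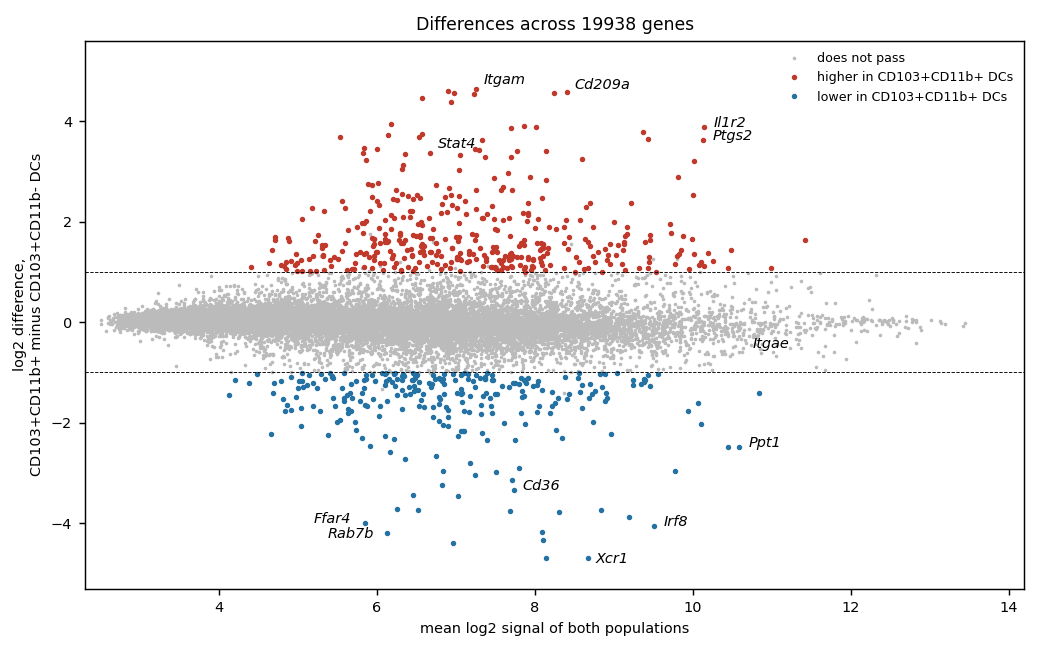
Log2 difference between CD103+CD11b+ and CD103+CD11b- DCs (vertical axis) against the mean log2 signal of both (horizontal axis) for 19938 genes, 1 point per gene, with dashed lines at a difference of 1 in either direction. The 389 higher genes and the 264 lower genes reach about the same size of difference, and *Itgae* lies among the genes that did not pass.

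Beside *Itgam*, the gene of the sort, the 12 largest differences toward CD103+CD11b+ DCs included receptors of the immunoglobulin superfamily, among them *Cd101* and the sialic acid receptor genes *Siglece* and *Cd33* (4.53). *Cd101* was at 9.42, 9.03 and 9.16 in CD103+CD11b+ DCs, against 4.49, 4.57 and 4.76 in CD103+CD11b- DCs, a 24.2-fold difference (log2 4.60, SE 0.11, limma adjusted p = 1.35e-09). *Siglece* was at 10.70, 10.29 and 10.57 in CD103+CD11b+ DCs, against 5.48, 6.15 and 6.24 in CD103+CD11b- DCs (log2 4.56). Every array of CD103+CD11b+ DCs lay more than 4 log2 units above every array of CD103+CD11b- DCs for both genes. They also included C-type lectins, which bind sugars on microbes and glycoproteins, with *Cd209a* by 4.59, *Mgl2* by 4.37 and *Cd209c* by 3.94. *Cd209a* was at 10.69, 10.75 and 10.66 in CD103+CD11b+ DCs, against 5.99, 6.49 and 5.85 in CD103+CD11b- DCs. *Cd209a* and *Cd209c* belong to a family of similar genes, so part of a signal may be shared between members. The others among the top 12 were *Tmem273* (4.56), the chemokine receptor gene *Ccr1* (4.46), *Cybb* (3.91), the IL-1 decoy receptor gene *Il1r2* (3.89), the CD47 receptor gene *Sirpa* (3.89) and *Pltp*, a phospholipid transfer protein (3.87).

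The largest differences toward CD103+CD11b- DCs, where CD103+CD11b+ DCs were low, included receptors, an endosomal GTPase and a protease inhibitor. *Xcr1*, the receptor for XCL1 from T and NK cells, was at 6.05, 6.12 and 6.80 in CD103+CD11b+ DCs, against 11.03, 10.92 and 11.12 in CD103+CD11b- DCs (log2 -4.70, 26.0-fold, adjusted p = 3.09e-08). *Rab7b*, a small GTPase of late endosomes, was at 4.13, 3.83 and 4.11 in CD103+CD11b+ DCs, against 8.32, 8.16 and 8.18 in CD103+CD11b- DCs (log2 -4.20). *Ffar4*, a receptor for long-chain fatty acids, was at 3.75, 3.95 and 3.86 in CD103+CD11b+ DCs, against 7.89, 7.73 and 7.94 in CD103+CD11b- DCs (log2 -4.0). No array of CD103+CD11b+ DCs came near one of CD103+CD11b- DCs for these genes. *Ctla2b*, related to the propeptide of cathepsins, was at 5.55, 6.33 and 6.13 in CD103+CD11b+ DCs, against 10.17, 9.73 and 10.64 in CD103+CD11b- DCs (log2 -4.18). *Gpr141b*, a G protein-coupled receptor, differed by -4.33 and *Ifi205*, an interferon-inducible gene, by -3.88. *Clec9a*, *Gpr33*, *Irf8*, *Tlr12*, *Cadm1* and *Cxcr3* complete the top 12, with differences of -3.74 to -4.69.

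**Figure D2:**
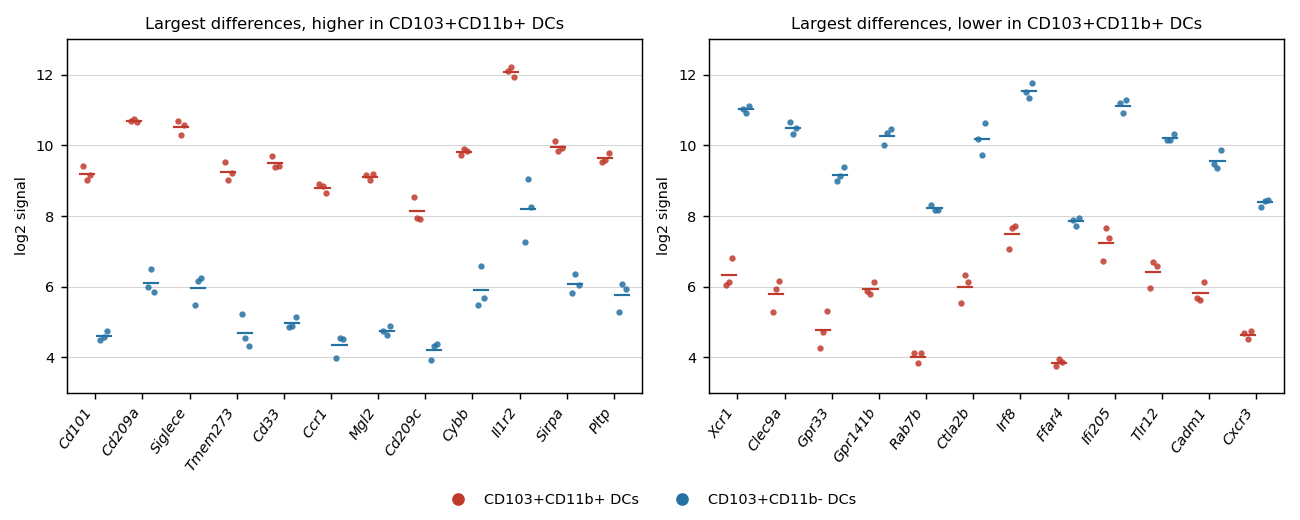
Log2 signal (vertical axis) of the 12 genes with the largest differences in each direction, leaving out the sort gene *Itgam*, with CD103+CD11b+ DCs in red at the left of each pair and CD103+CD11b- DCs in blue at the right, points for the 3 arrays and bars for their means. No gene overlaps between the populations, and the blue points of *Il1r2* and *Cybb* spread more widely than the red ones.

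Some genes were bright on every array of one population and dim on every array of the other. Over log2 8 on all arrays of CD103+CD11b+ DCs and under log2 6 on all arrays of CD103+CD11b- DCs lay 14 genes (0.0702% of all genes): *Itgam* itself, *Cd101*, *Tmem273*, *Cd33*, *Ccr1*, *Mgl2*, *Trem1*, *Sh2d1b1*, *Emb*, *B4galt6*, *Pram1*, *Cd72*, *Mcemp1* and *Plau*. The opposite held for 8 genes (0.0401%): *Gpr33*, *Rab7b*, *Cxcr3*, *Cd8a*, *P2ry14*, *F630111L10Rik*, *Dapk2* and *Ttc39a*. *Trem1*, a receptor that amplifies inflammatory signals, was at 8.80, 8.20 and 8.35 in CD103+CD11b+ DCs, against 4.46, 4.90 and 4.75 in CD103+CD11b- DCs. *Sh2d1b1*, an adaptor of SLAM receptors, was at 8.43, 8.45 and 8.22 in CD103+CD11b+ DCs, against 4.63, 4.83 and 4.60 in CD103+CD11b- DCs. On the other side, *P2ry14*, a receptor for UDP-glucose, was at 5.13, 5.05 and 5.42 in CD103+CD11b+ DCs, against 8.39, 8.48 and 8.46 in CD103+CD11b- DCs. *Dapk2*, a calmodulin-regulated kinase, was at 5.25, 5.35 and 5.48 in CD103+CD11b+ DCs, against 8.34, 8.19 and 8.42 in CD103+CD11b- DCs.

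These genes were also read in the other populations. *Cd101* was at 7.96 ± 0.03 (SD, n = 3) in CD103-CD11b+ DCs, with 5.25 ± 0.17 for CD103-CD11b- DCs and 4.66 ± 0.16 for mϕ. *Mgl2* was bright in CD103-CD11b+ DCs (9.08 ± 0.39) and mϕ (9.62 ± 0.39), but not in CD103-CD11b- DCs (4.71 ± 0.25). *Ttc39a* was at 5.49 to 5.81 on average in the other 3 populations, so that its high signal was seen in CD103+CD11b- DCs alone among those measured. *Rab7b* was at 7.56 ± 0.31 in mϕ and 4.03 ± 0.35 in CD103-CD11b+ DCs.

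**Figure D3:**
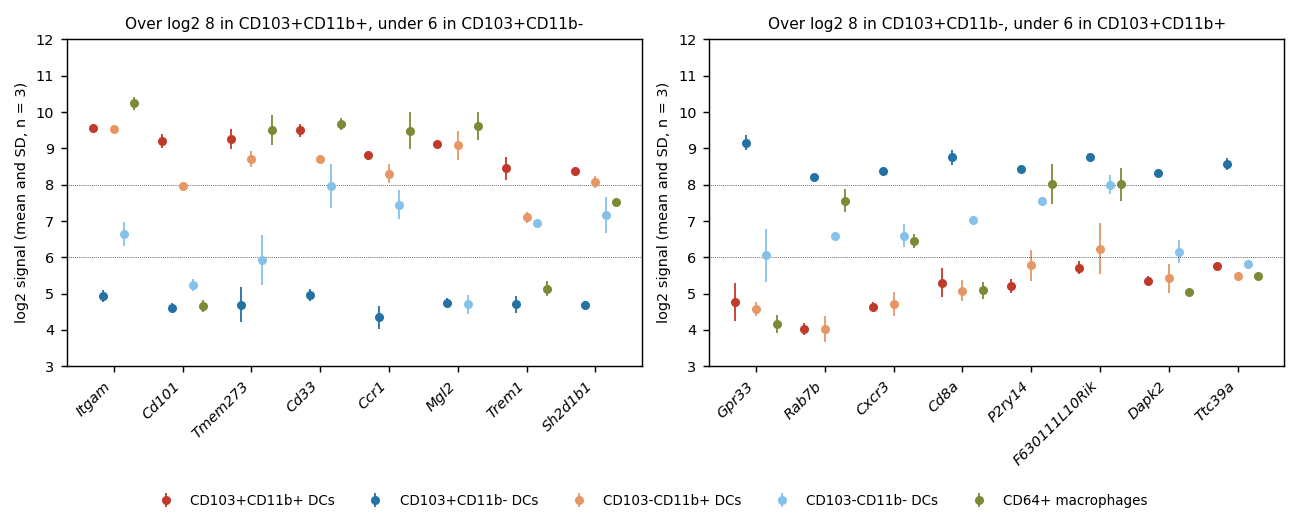
Mean log2 signal with SD over 3 arrays (vertical axis) in all 5 populations for 8 genes bright in CD103+CD11b+ DCs and dim in CD103+CD11b- DCs (left panel) and 8 genes with the opposite pattern (right panel), with dotted lines at log2 6 and 8. CD103-CD11b+ DCs lie near CD103+CD11b+ DCs for most genes, while mϕ are dim for *Cd101* and *Trem1* and above log2 7 for *Rab7b*, *P2ry14* and *F630111L10Rik*.

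Promoters were searched for motifs of the factors that separate these cells. ETS factors such as PU.1 recruit IRF4 and IRF8 to composite elements, while IRF factors also bind interferon-stimulated response elements (ISRE). The search covered 300 bases around each start site in RefSeq (build GRCm38.p6), which matched 15614 of the measured genes and 90 of 108 named genes, on both strands and with some genes having more than 1 window. The letters were GGAA, any 2 bases and GAAA for the composite, GAAA, any 2 bases and GAAA for ISRE, which can overlap it, TGANTCA for AP-1 and GGAAGTG for ETS or PU.1. The composite was found in 20 of 404 windows (5.0%) of higher genes, 7 of 284 (2.5%) of lower genes and 479 of 19177 (2.5%) of all measured genes. ISRE was found in 33 (8.2%), 12 (4.2%) and 627 (3.3%) of the same windows, AP-1 in 39 (9.7%), 22 (7.7%) and 1323 (6.9%), and the ETS or PU.1 letters in 61 (15.1%), 28 (9.9%) and 2300 (12%). Windows of *Irf4*, *Irf8*, *Xcr1* and *Ccr1* held none of the 4 motifs. A match describes letters and not binding.

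The windows of *Cd209a*, a higher gene, and of *Cd8a* and *Gpr33*, lower genes, are shown because they hold the composite and come from both directions, a choice made after their values were seen. The window of *Cybb*, also a higher gene, holds the composite from position +4 and is not shown. The windows shown thus do not reflect the shares of higher and lower genes above. Capitals mark the matches, on either strand. The window of *Cd209a* (chr8:3748935-3749234, minus strand) has the composite from position -9 and GGAAGTG from -152, that of *Cd8a* (chr6:71373177-71373476, plus strand) has composites from -158 and -136, and that of *Gpr33* (chr12:52028014-52028313, minus strand) has one from -217, counted from the start site.
Cd209a: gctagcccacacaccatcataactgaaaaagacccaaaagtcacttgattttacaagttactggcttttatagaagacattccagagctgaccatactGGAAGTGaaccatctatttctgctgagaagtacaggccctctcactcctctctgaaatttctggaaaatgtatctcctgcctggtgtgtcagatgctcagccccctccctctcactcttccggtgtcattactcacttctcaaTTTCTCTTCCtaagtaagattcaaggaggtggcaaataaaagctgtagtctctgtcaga
Cd8a: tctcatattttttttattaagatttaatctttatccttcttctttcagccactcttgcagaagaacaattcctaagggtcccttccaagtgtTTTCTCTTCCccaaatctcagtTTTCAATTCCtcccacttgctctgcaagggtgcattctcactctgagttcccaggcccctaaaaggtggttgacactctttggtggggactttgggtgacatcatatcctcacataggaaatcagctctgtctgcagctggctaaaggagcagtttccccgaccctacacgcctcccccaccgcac
Gpr33: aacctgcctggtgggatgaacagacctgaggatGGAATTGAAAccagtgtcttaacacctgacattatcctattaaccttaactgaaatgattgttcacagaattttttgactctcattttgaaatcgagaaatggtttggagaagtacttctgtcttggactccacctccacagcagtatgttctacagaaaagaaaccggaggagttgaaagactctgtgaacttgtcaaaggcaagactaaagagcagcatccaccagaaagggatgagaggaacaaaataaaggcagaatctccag

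Of 19 cDC1 markers, CD103+CD11b+ DCs had 15 lower and none higher, with a median log2 difference of -3.45 beside 0.034 over all genes. Of 17 cDC2 markers, 13 were higher and none was lower, with a median of 3.29. The cDC1 markers that did not pass were *Batf3* (-0.37), *Id2* (-0.93), *Cd24a* (-0.28) and *Wdfy4* (-0.60), and the cDC2 markers that did not pass were *Klf4* (0.51), *Notch2* (-0.14), *Ltb* (0.98) and *Dtx1* (0.28). Many of these markers are known from such cells, so their direction was known beforehand. Every marker that passed is also among the genes the paper lists, from these same arrays, for CD103+CD11b- DCs or for the CD11b+ subsets. The counts and medians of these lists were thus largely set by the choice of markers and are no independent result.

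Of 34 transcription factors of DCs, CD103+CD11b+ DCs had 7 higher and 2 lower, and 25 did not pass (median 0.49). Over all genes, 1.95% were higher and 1.32% were lower. Members of this and the following lists were chosen with earlier results of these data known, so the counts are no independent result. *Irf4* was at 9.39, 9.50 and 9.14 in CD103+CD11b+ DCs, against 5.79, 6.35 and 6.01 in CD103+CD11b- DCs. *Stat4*, which conveys signals of IL-12 and type I interferon, was at 7.96, 8.86 and 8.25 in CD103+CD11b+ DCs, against 4.98, 5.12 and 4.86 in CD103+CD11b- DCs (log2 3.37, SE 0.21, adjusted p = 1.33e-06). *Prdm1*, which encodes the repressor BLIMP-1, was at 7.67, 7.54 and 7.44 in CD103+CD11b+ DCs, against 4.70, 5.26 and 4.81 in CD103+CD11b- DCs (log2 2.63). The other higher factors were *Zeb2* (1.90), *Nr4a3* (1.60), *Spib* (1.14) and *Cebpa* (1.12).

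*Irf8* was at 7.08, 7.66 and 7.72 in CD103+CD11b+ DCs, against 11.52, 11.33 and 11.76 in CD103+CD11b- DCs. *Mycl*, a member of the MYC family known in cDC1, was at 6.74, 6.29 and 6.64 in CD103+CD11b+ DCs, against 8.34, 8.32 and 8.41 in CD103+CD11b- DCs (log2 -1.80, adjusted p = 3.22e-06). *Batf3* and *Id2*, also factors of cDC1 development, did not pass. *Batf3*, a partner of IRF8 at AP-1 sites, was at 9.13 ± 0.28 in CD103+CD11b+ DCs, compared with 9.50 ± 0.04 in CD103+CD11b- DCs (SD, n = 3 each, adjusted p = 0.0925). *Id2*, an inhibitor of E proteins, was at 9.15 ± 0.11 and 10.09 ± 0.03 in the same populations, an adjusted p of 2.14e-04 with a difference of -0.93, short of the limit on size. *Zbtb46*, a factor shared by conventional DCs, was at 7.37 ± 0.33 in CD103+CD11b+ DCs, compared with 7.35 ± 0.14 in CD103+CD11b- DCs.

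**Figure D4:**
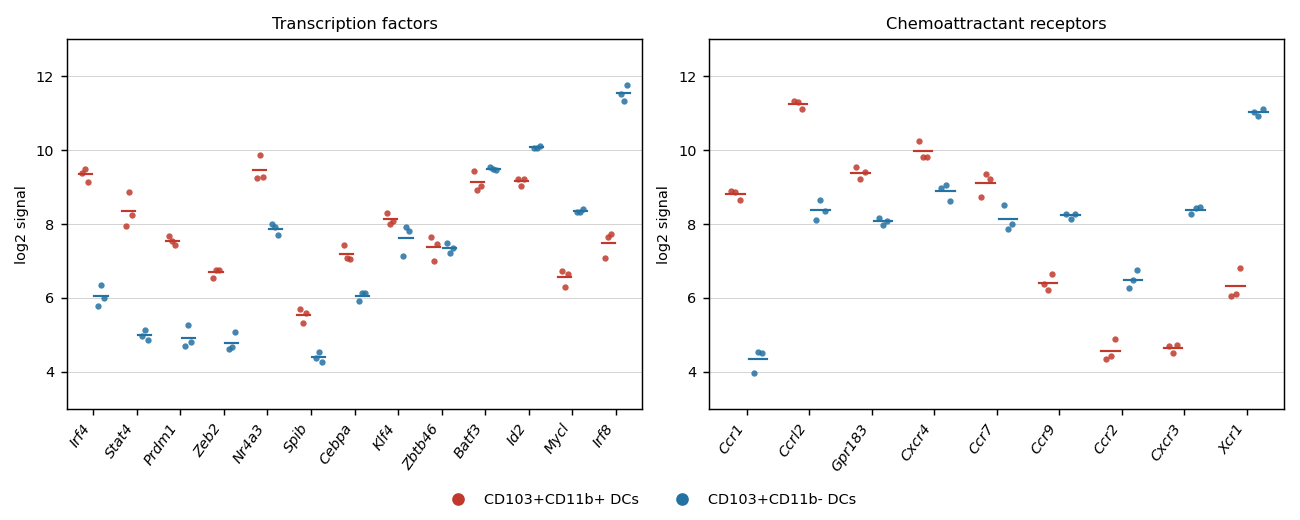
Log2 signal (vertical axis) of transcription factors (left panel) and chemoattractant receptors (right panel) on each of 3 arrays per population, with CD103+CD11b+ DCs in red at the left of each pair and CD103+CD11b- DCs in blue at the right, and bars for the means. *Irf4* and *Irf8* run in opposite directions, *Zbtb46* overlaps, and *Ccr1* and *Xcr1* show the widest gaps among the receptors.

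Of 22 Toll-like receptors and adaptors, 5 were higher in CD103+CD11b+ DCs and 2 were lower, where 1.95% and 1.32% of all genes were. The members that passed are also among the genes the paper lists from these same arrays, so the count is no independent result. The higher ones were *Tlr2*, a receptor for lipoproteins, by 1.77, *Cd14*, a coreceptor for lipopolysaccharide, by 1.40, *Irak2*, a signalling kinase, by 1.31, *Ly86*, which encodes MD-1, by 1.23, and *Tlr1*, the partner of TLR2, by 1.02. The call on *Tlr1* held in 2 of 9 fits that each left out 1 array. The calls on *Tlr1* and *Cd14* were lost (limma adjusted p = 0.0239 and 0.0166) without the array richest in pancreatic acinar signal of each DC population. That fit had fewer arrays. *Tlr2* was at 7.09, 7.37 and 7.09 in CD103+CD11b+ DCs, against 5.35, 5.45 and 5.43 in CD103+CD11b- DCs. The lower ones were *Tlr3*, an endosomal receptor for double-stranded RNA, at 6.62, 6.85 and 7.46 in CD103+CD11b+ DCs, against 10.77, 10.64 and 10.72 in CD103+CD11b- DCs, and *Tlr12*. The endosomal receptor genes *Tlr7* (0.06), *Tlr9* (-0.90) and *Tlr13* (-0.15) did not pass.

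Of 23 cytosolic sensors and inflammasome genes, CD103+CD11b+ DCs had 9 higher and none lower, with a median of 0.62. Over all genes, 1.95% were higher and 1.32% were lower. *Mefv*, which encodes the inflammasome sensor pyrin, was at 7.87, 7.56 and 7.54 in CD103+CD11b+ DCs, against 5.08, 5.26 and 5.08 in CD103+CD11b- DCs (log2 2.51). *Nlrp3*, another inflammasome sensor, was at 9.32, 9.53 and 9.14 in CD103+CD11b+ DCs, against 6.39, 7.39 and 6.79 in CD103+CD11b- DCs (log2 2.47). *Nod1*, a sensor of bacterial peptidoglycan, differed by 2.21 and *Ddx58*, which encodes the RNA sensor RIG-I, by 1.94. The product and the proteases of this pathway were higher too, with *Il18* by 1.75, *Casp4* by 1.39 and *Casp1* by 1.2. *Card9*, the adaptor of lectin receptors, differed by 1.48 and *Ifih1*, which encodes the RNA sensor MDA5, by 1.07, or 0.98 without CD103+CD11b- replicate 3. The adaptors *Pycard* (0.10) and *Mavs* (-0.05) did not pass, nor did the sensors *Aim2* (0.49) and *Cgas* (-0.04).

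The NADPH oxidase makes superoxide in phagosomes. Of its 10 measured members, 2 were higher and none was lower, beside 1.95% and 1.32% of all genes. *Cybb*, which encodes its catalytic subunit gp91phox, was at 9.74, 9.89 and 9.84 in CD103+CD11b+ DCs, against 5.48, 6.58 and 5.67 in CD103+CD11b- DCs (log2 3.91, SE 0.22, adjusted p = 5.12e-07). *Ncf1*, which encodes the cytosolic subunit p47phox, differed by 1.07 and fell short of the size limit, at 0.94, without CD103+CD11b+ replicate 1. *Cyba*, the partner of gp91phox in the membrane, differed by -0.30 and did not pass.

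Of 23 genes of MHC class I and cross-presentation, 3 were lower and none was higher in CD103+CD11b+ DCs, with a median of -0.40, where 1.32% of all genes were lower. *Tap1*, a chain of the peptide transporter, was at 8.71, 8.68 and 9.07 in CD103+CD11b+ DCs, against 10.06, 9.94 and 10.29 in CD103+CD11b- DCs (log2 -1.28, adjusted p = 7.32e-05). *Rab43* and *Rab11a*, GTPases of vesicle transport, differed by -1.03 and -1.01. Both lay at the size limit, since *Rab43* differed by -0.93 without CD103+CD11b- replicate 1 and by -0.98 without CD103+CD11b+ replicate 2, and *Rab11a* by -0.99 without CD103+CD11b- replicate 1 and by -0.95 without CD103+CD11b+ replicate 3. *Wdfy4*, needed for cross-presentation of cell-bound antigen, differed by -0.60 and did not pass. Of 18 genes of the MHC class II pathway, 1 passed, beside 3.28% of all genes. *Lgmn*, an endopeptidase of antigen processing, was at 8.93, 8.98 and 8.80 in CD103+CD11b+ DCs, against 6.89, 6.95 and 6.84 in CD103+CD11b- DCs (log2 2.01). Differences of the class II chains and their chaperone were small and did not pass, with *H2-Aa* at 0.07, *H2-Ab1* at 0.05, *H2-Eb1* at 0.04 and *Cd74* at 0.04.

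Of 40 lysosomal genes, CD103+CD11b+ DCs had 5 higher and 8 lower, beside 1.95% and 1.32% of all genes. The higher ones were the peptidase genes *Ctsc* (1.59), *Ctsa* (1.37), *Tpp1* (1.27) and *Ctsz* (1.11) and *Acp5*, a phosphatase (1.89). *Ppt1*, which removes palmitate from proteins, was at 9.17, 9.45 and 9.43 in CD103+CD11b+ DCs, against 11.89, 11.68 and 11.92 in CD103+CD11b- DCs (log2 -2.48). *Naaa*, an amidase of N-acylethanolamines, also differed by -2.48. *Cpq*, a carboxypeptidase, differed by -2.26, *Gusb*, a glucuronidase, by -1.27, *Npc2*, a cholesterol carrier, by -1.25, *Galc*, a galactosylceramidase, by -1.22, *Ppt2*, a thioesterase, by -1.18 and *Arsb*, a sulfatase of glycosaminoglycans, by -1.14. The call on *Ppt2* ended without CD103+CD11b- replicate 1 (-0.97) and that on *Ctsz* without the same array (0.99).

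Of 27 receptors that guide migration, 4 were higher in CD103+CD11b+ DCs (*Ccr1*, *Ccrl2*, *Gpr183* and *Cxcr4*) and 4 were lower (*Xcr1*, *Cxcr3*, *Ccr2* and *Ccr9*). Over all genes, 1.95% were higher and 1.32% were lower. *Ccrl2*, which binds chemerin without signalling, was at 11.33, 11.31 and 11.12 in CD103+CD11b+ DCs, against 8.11, 8.66 and 8.35 in CD103+CD11b- DCs (log2 2.88). *Gpr183*, also named EBI2, a receptor for oxysterols that positions cells in lymphoid tissue, differed by 1.31. *Cxcr4*, the receptor for CXCL12, differed by 1.09 and fell below the size limit without CD103+CD11b+ replicate 1 (0.94) or CD103+CD11b- replicate 3 (0.95). *Cxcr3*, the receptor for CXCL9 and CXCL10, was at 4.69, 4.51 and 4.74 in CD103+CD11b+ DCs, against 8.27, 8.43 and 8.46 in CD103+CD11b- DCs (log2 -3.74). *Ccr2*, the receptor for CCL2, was at 4.36, 4.43 and 4.90 in CD103+CD11b+ DCs, against 6.26, 6.49 and 6.75 in CD103+CD11b- DCs (log2 -1.94). *Ccr9*, the receptor for the small intestinal chemokine CCL25, was at 6.37, 6.21 and 6.64 in CD103+CD11b+ DCs, against 8.28, 8.15 and 8.28 in CD103+CD11b- DCs (log2 -1.83). *Ccr7*, which takes DCs to lymph nodes, was at 9.10 ± 0.33 in CD103+CD11b+ DCs, compared with 8.13 ± 0.34 in CD103+CD11b- DCs, a difference of 0.97 that did not pass (adjusted p = 0.0137). It passed without CD103+CD11b+ replicate 1 (1.16) or CD103+CD11b- replicate 1 (1.17), and with array weights (1.09).

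*Xcr1* and *Ccr1* follow each other among the measured genes of chromosome 9 in RefSeq order, which was noticed after their values were seen. The genes on either side were *Cxcr6* (0.44, did not pass) before *Xcr1*, and *Ccr1l1* (0.14), *Ccr3* (0.15) and *Ccr2* (-1.94) after *Ccr1*. *Ccr9* lies 3 genes before *Xcr1*. Of these 7 receptor genes in the same neighbourhood, 3 were lower, 1 was higher and 3 did not pass.

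Of 30 chemokines, 2 were higher and 1 was lower, beside 1.95% and 1.32% of all genes. *Cxcl2*, which attracts neutrophils, was at 10.43, 10.71 and 10.06 in CD103+CD11b+ DCs, against 6.80, 9.02 and 8.28 in CD103+CD11b- DCs (log2 2.37, SE 0.42, adjusted p = 0.00267). *Ccl3*, a ligand of CCR1, was at 10.45, 10.86 and 10.75 in CD103+CD11b+ DCs, against 7.82, 9.54 and 8.82 in CD103+CD11b- DCs (log2 1.96). Both genes varied most among the arrays of CD103+CD11b- DCs, with replicate 1 lowest and replicate 2 highest, as the mean of the immediate early and heat shock genes did (9.09, 9.65 and 9.47 in these arrays). The same order was seen for other higher genes, among them *Il1r2* (7.27, 9.05 and 8.27) and *Nlrp3* (6.39, 7.39 and 6.79). Replicate 2 of CD103+CD11b- DCs also had their highest acinar mean (8.59). The part of the immediate early response or of acinar RNA in these values was not tested. The call on *Cxcl2* was lost without CD103+CD11b+ replicate 1 (adjusted p = 0.0122) or replicate 2 (adjusted p = 0.0152). With the 6 arrays alone in the fit, neither *Cxcl2* nor *Ccl3* passed. *Cxcl9*, a ligand of CXCR3, was at 8.74, 9.01 and 9.54 in CD103+CD11b+ DCs, against 11.14, 10.99 and 11.23 in CD103+CD11b- DCs (log2 -2.02), in the same direction as *Cxcr3*.

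Of 23 cytokines, 4 were higher (*Il1a*, *Il1b*, *Il18* and *Il6*) and 3 were lower (*Lif*, *Il12b* and *Il15*) in CD103+CD11b+ DCs. Over all genes, 1.95% were higher and 1.32% were lower. *Il1b* was at 11.30, 11.42 and 11.09 in CD103+CD11b+ DCs, against 8.68, 9.16 and 8.38 in CD103+CD11b- DCs. *Il6* differed by 1.23 and kept its call in 2 of 9 fits that left out an array. *Lif*, a cytokine of the IL-6 family, was at 5.69, 6.33 and 6.03 in CD103+CD11b+ DCs, against 8.43, 9.41 and 9.14 in CD103+CD11b- DCs (log2 -2.98). *Il12b*, which encodes the p40 chain of IL-12 and IL-23, was at 4.75, 5.20 and 5.21 in CD103+CD11b+ DCs, against 7.85, 7.20 and 7.04 in CD103+CD11b- DCs. *Il15*, a growth factor of NK and CD8+ T cells, was at 6.04, 5.93 and 6.12 in CD103+CD11b+ DCs, against 7.32, 7.37 and 7.30 in CD103+CD11b- DCs (log2 -1.30). *Il23a* (0.39) and *Il10* (0.19) did not pass.

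Of 33 cytokine receptors, CD103+CD11b+ DCs had 9 higher and none lower (median 0.39), beside 1.95% and 1.32% of all genes. *Il1r2* was at 12.11, 12.22 and 11.94 in CD103+CD11b+ DCs, against 7.27, 9.05 and 8.27 in CD103+CD11b- DCs. *Lifr*, the receptor for the *Lif* product, was at 6.74, 6.86 and 7.01 in CD103+CD11b+ DCs, against 4.50, 5.00 and 5.09 in CD103+CD11b- DCs (log2 2.01), the reverse of its ligand gene. *Csf1r*, the receptor of the mϕ growth factor CSF-1, was at 7.10, 6.71 and 7.09 in CD103+CD11b+ DCs, against 4.79, 5.28 and 5.18 in CD103+CD11b- DCs (log2 1.88), and at 11.71 ± 0.32 in mϕ. *Csf2rb*, the common β chain of the receptors for GM-CSF, IL-3 and IL-5, differed by 1.35 and its partner *Csf2ra* by 0.27, which did not pass. The others were *Il21r* (1.18), *Il7r* (1.12), *Il1rl2* (1.10), *Il17ra* (1.04) and *Il13ra1* (1.01). *Il7r*, *Il17ra* and *Il13ra1* lost their call in 2, 2 and 3 of the 9 fits that left out an array. *Flt3*, the receptor of the DC growth factor FLT3L, was at 9.60 ± 0.13 in CD103+CD11b+ DCs, compared with 10.09 ± 0.12 in CD103+CD11b- DCs and did not pass the size limit (-0.49, adjusted p = 0.00503).

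Of 29 costimulators and members of the TNF family, 7 were higher and 2 were lower, beside 1.95% and 1.32% of all genes. *Tnfsf8*, which encodes CD30 ligand, was at 7.28, 7.21 and 7.15 in CD103+CD11b+ DCs, against 4.72, 4.93 and 4.74 in CD103+CD11b- DCs (log2 2.42). *Cd274*, which encodes the inhibitory ligand PD-L1, was at 10.13, 10.28 and 9.91 in CD103+CD11b+ DCs, against 8.34, 8.22 and 8.10 in CD103+CD11b- DCs (log2 1.89). The other higher genes were the TNF receptor genes *Tnfrsf1b* (1.58) and *Tnfrsf18* (1.49), the nectin-like *Pvr* (1.46), the ligand of 4-1BB *Tnfsf9* (1.26) and *Cd80* (1.12). The call on *Cd80* was lost without CD103+CD11b+ replicate 2 (0.95). The lower genes were *Btla*, an inhibitory receptor, at 6.01, 6.39 and 6.64 in CD103+CD11b+ DCs, against 9.41, 9.11 and 9.25 in CD103+CD11b- DCs, and *Cd200*, an inhibitory ligand of myeloid cells, with -1.67. *Cd86* (-0.23) and *Cd40* (0.12), which activate T cells and DCs, did not pass.

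Beside *Itgam*, which was left out of the integrin list as a gene of the sort, CD103+CD11b+ DCs had none of 24 integrins higher and 3 lower. Over all genes, 1.95% were higher and 1.32% were lower. The lower integrins were α chains that pair with β1: *Itga1* (-1.81), *Itga8* (-1.75) and *Itga3* (-1.67). *Itga1*, a collagen receptor, was at 4.68, 4.55 and 4.95 in CD103+CD11b+ DCs, against 6.60, 6.56 and 6.45 in CD103+CD11b- DCs. *Itgb7*, the partner of CD103 (-0.24), and *Itgb8*, which activates latent TGFβ (-0.40, adjusted p = 0.0390), did not pass.

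Of 27 junction and adhesion molecules, 5 were higher and 3 were lower, beside 1.95% and 1.32% of all genes. *Emb*, which encodes embigin, was at 9.11, 9.27 and 9.03 in CD103+CD11b+ DCs, against 5.12, 5.92 and 5.49 in CD103+CD11b- DCs (log2 3.63). *F11r*, which encodes the tight junction protein JAM-A, differed by 2.53 and *Pecam1*, also in the stromal and endothelial marker list, by 2.49. *Cdh1*, which encodes E-cadherin, the ligand of CD103, differed by 2.18 and *Epcam* by 1.10. *Cdh1* was at 9.30, 8.78 and 8.93 in CD103+CD11b+ DCs, against 6.97, 6.62 and 6.89 in CD103+CD11b- DCs. The epithelial genes *Krt8* (0.17), *Fabp1* (-0.02) and *Vil1* (-0.13) did not pass, and *Epcam* fell below the size limit without CD103+CD11b- replicate 2 (0.99). The lower ones were *Cadm1*, *Cldn1*, a tight junction protein (-1.67), and *Cd81*, a tetraspanin, at 8.26, 7.95 and 8.67 in CD103+CD11b+ DCs, against 11.36, 11.13 and 11.28 in CD103+CD11b- DCs (log2 -2.96).

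Retinoic acid made by intestinal DCs induces gut homing and regulatory T cells. Of 27 genes of retinoid metabolism, CD103+CD11b+ DCs had 1 higher and 2 lower, beside 1.95% and 1.32% of all genes. *Cyp26b1*, which degrades retinoic acid, was at 5.01, 4.85 and 5.06 in CD103+CD11b+ DCs, against 7.07, 7.13 and 7.49 in CD103+CD11b- DCs (log2 -2.26). *Dhrs9*, a retinol dehydrogenase, differed by -1.30, and *Dhrs3*, which reduces retinal, by 1.07. *Dhrs3* was at 0.99 without the array richest in acinar signal of each DC population. *Aldh1a2*, which encodes the enzyme that makes retinoic acid, was at 7.53 ± 0.04 in CD103+CD11b+ DCs, compared with 7.97 ± 0.07 in CD103+CD11b- DCs, short of the size limit (-0.44, adjusted p = 0.00445).

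TGFβ signals in DCs through the receptors encoded by *Tgfbr1* and *Tgfbr2*. Of 33 genes of the TGFβ pathway, 2 were higher and 2 were lower, beside 1.95% and 1.32% of all genes. These 2 receptor genes did not pass. *Tgfbr1* was at 7.46 ± 0.14 in CD103+CD11b+ DCs, compared with 7.35 ± 0.06 in CD103+CD11b- DCs (adjusted p = 0.693), and *Tgfbr2* at 7.18 ± 0.12 and 7.02 ± 0.28 (adjusted p = 0.500). *Smad7*, an inhibitor of TGFβ signalling that TGFβ induces, was at 7.81, 7.57 and 7.52 in CD103+CD11b+ DCs, against 6.10, 6.71 and 6.35 in CD103+CD11b- DCs (log2 1.25). *Nrros*, a carrier of latent TGFβ1 on myeloid cells, differed by 1.05 and by 0.96, 0.98 and 1.0 without CD103+CD11b+ replicate 1, CD103+CD11b- replicate 1 and CD103+CD11b- replicate 2. *Acvrl1*, a type I receptor of the family, was at 7.37, 7.19 and 7.60 in CD103+CD11b+ DCs, against 9.03, 9.06 and 9.07 in CD103+CD11b- DCs (log2 -1.67). *Tgfbi*, a secreted matrix protein, differed by -1.32. It did not pass without the array richest in acinar signal of each DC population (-1.06, limma adjusted p = 0.0189), a fit with fewer arrays. *Tgfb1* differed by 0.51 (adjusted p = 0.00323), short of the size limit.

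NOTCH2 signals support cDC2 of the intestine. Of 32 genes of the Notch pathway, none was higher and 2 were lower, beside 1.95% and 1.32% of all genes. The lower ones were *Hes1*, a target gene, with -1.43 and *Psen2*, a subunit of γ-secretase, with -1.06. *Hes1* was at 5.99, 5.91 and 6.52 in CD103+CD11b+ DCs, against 7.41, 7.80 and 7.49 in CD103+CD11b- DCs. *Notch2* itself was at 8.29 ± 0.14 and 8.43 ± 0.09 in these populations (adjusted p = 0.427).

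Eicosanoids are lipid mediators made from arachidonic acid. Of 26 eicosanoid enzymes and receptors, CD103+CD11b+ DCs had 8 higher and 3 lower, beside 1.95% and 1.32% of all genes. *Ptgs2*, which encodes the inducible cyclooxygenase COX-2, was at 11.86, 12.13 and 11.84 in CD103+CD11b+ DCs, against 8.0, 8.96 and 7.98 in CD103+CD11b- DCs (log2 3.63, adjusted p = 9.48e-07). *Hpgd*, which degrades prostaglandins, was at 9.13, 8.75 and 8.94 in CD103+CD11b+ DCs, against 6.02, 6.28 and 6.42 in CD103+CD11b- DCs (log2 2.70). *Pla2g7*, the lipase of platelet-activating factor, differed by 1.63, *Ptger4*, which encodes the prostaglandin E2 receptor EP4, by 1.44, *Pla2g4a*, which releases arachidonic acid, by 1.40, *Ltb4r1*, a leukotriene B4 receptor gene, by 1.31, *Lta4h*, which makes leukotriene B4, by 1.25 and *Ptger3*, which encodes the receptor EP3, by 1.18. The call on *Ptger3* was lost without CD103+CD11b+ replicate 2 (adjusted p = 0.0110) or CD103+CD11b- replicate 3 (adjusted p = 0.0119). The lower genes were *Ptger2*, which encodes the receptor EP2 (-1.76), the prostacyclin synthase gene *Ptgis* (-1.69) and the thromboxane synthase gene *Tbxas1* (-1.17). Receptor genes of prostaglandin E2 ran in both directions, with EP4 and EP3 higher and EP2 lower.

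Of 27 genes of lipid handling, 3 were higher and 3 were lower, beside 1.95% and 1.32% of all genes. *Pltp* was at 9.54, 9.58 and 9.78 in CD103+CD11b+ DCs, against 5.28, 6.09 and 5.93 in CD103+CD11b- DCs. *Cd36*, a scavenger receptor for fatty acids and dead cells, was at 5.71, 6.36 and 6.14 in CD103+CD11b+ DCs, against 9.60, 9.24 and 9.40 in CD103+CD11b- DCs (log2 -3.34). *Fabp5* (1.85) and *Dgat1* (1.53) were higher, and the lipid droplet gene *Plin2* (-1.11) and the fatty acid oxidation gene *Acadl* (-1.09) were lower.

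Of 23 genes of glycolysis and glucose uptake, 5 were higher and 1 was lower, beside 1.95% and 1.32% of all genes. *Pygl*, which releases glucose from glycogen, was at 9.12, 9.08 and 8.83 in CD103+CD11b+ DCs, against 5.39, 6.02 and 5.78 in CD103+CD11b- DCs (log2 3.28). The glucose transporter genes *Slc2a3* (1.85), *Slc2a6* (1.47) and *Slc2a1* (1.06) and the lactate transporter gene *Slc16a3* (1.42) were also higher, while *Hk3*, a hexokinase, was lower (-1.11). The enzymes *Aldoa* (-0.28), *Pkm* (0.02) and *Ldha* (-0.11) did not pass. *Slc2a1* fell short of the size limit without CD103+CD11b- replicate 1 (0.88). Of 34 genes of the cell cycle, only *Ccnd2*, which encodes cyclin D2, passed (1.54), a share near the 3.28% of all genes that passed. The median was -0.18 over the list, and *Mki67* (-0.29) did not differ by the test.

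**Figure D5:**
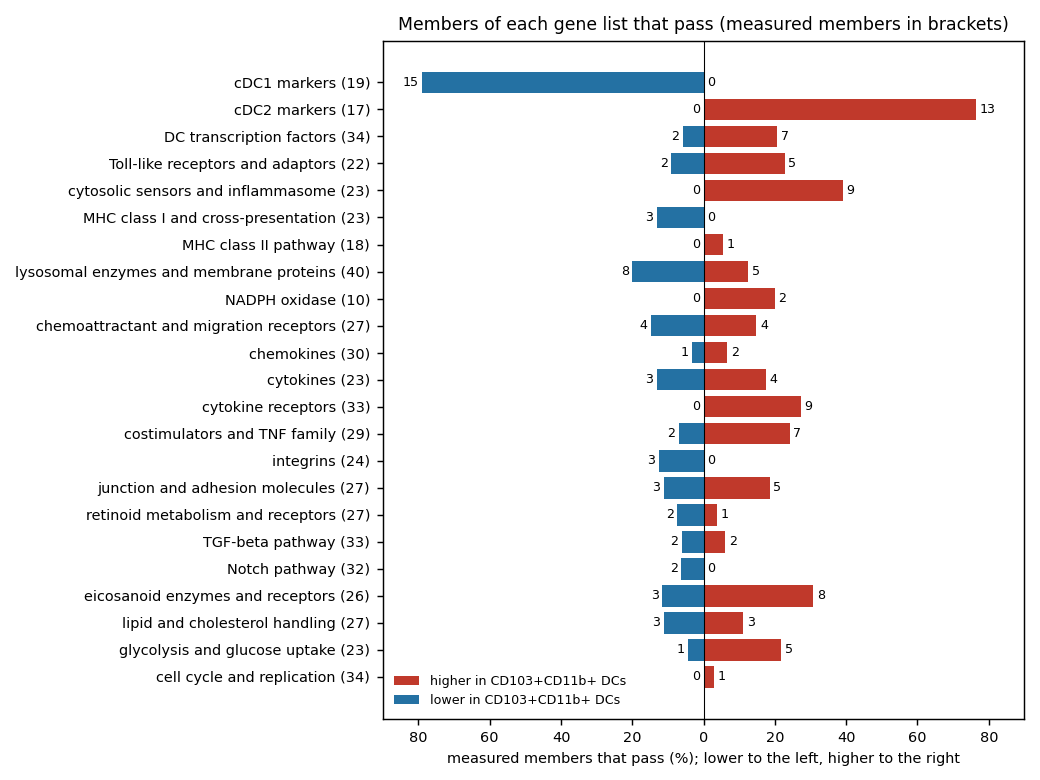
Share of the measured members of each of 23 gene lists that were higher (bars to the right, red) or lower (bars to the left, blue) in CD103+CD11b+ DCs, in percent on the horizontal axis, with counts at the bar ends and measured members in brackets. The cDC1 and cDC2 lists fill most of their range on opposite sides, and cytosolic sensors and cytokine receptors hold higher genes only. Over all genes, 1.95% were higher and 1.32% were lower.

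Some passing genes also lay side by side on chromosomes. Among 19916 genes in RefSeq order, 9 runs of 3 or more neighbours passed in the same direction, 6 of them higher and 3 lower. The runs held 32 genes in all, beside 653 genes that passed, so most passing genes were in no run. The longest held 5 lower genes on chromosome 3: *Med12l*, *Gpr171*, *P2ry14*, *F630111L10Rik* and *P2ry13*, from -3.24 to -1.17. *P2ry14* and *P2ry13* encode receptors for nucleotides. On chromosome 5, *Abcg3*, *Gbp8*, *Gbp9* and *Gbp4* were higher by 1.25 to 2.56, of which those named Gbp encode interferon-inducible GTPases. On the same chromosome *Zcwpw1*, *Pilra*, *Pilrb1* and *Pilrb2* were higher by 1.34 to 3.78, of which *Pilra* encodes an inhibitory and those named Pilrb activating receptors. *Pilra* was at 11.26 ± 0.09 in CD103+CD11b+ DCs, compared with 7.48 ± 0.36 in CD103+CD11b- DCs, and *Pilrb1* at 10.69 ± 0.13 and 9.34 ± 0.35 in the same populations. Also on chromosome 5, *Ppef2*, *Naaa*, *Sdad1* and *Cxcl9* were lower, from -2.48 to -1.15. The shorter runs were *Clec4a4*, *Clec4b1* and *Clec4a2*, *Trem1* and *Trem3* with *A530064D06Rik*, *Ifitm5*, *Ifitm2* and *Ifitm1*, and *Neurl2*, *Ctsa* and *Pltp* as higher runs, and *R74862*, *Cd81* and *Tssc4* as a lower run. Several of these are families of similar genes whose signals may overlap.

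The other populations were placed by the midpoint between CD103+CD11b+ and CD103+CD11b- DCs. Of the 389 higher genes, the mean of CD103-CD11b+ DCs lay on the CD103+CD11b+ side for 339 (87.1%), that of CD103-CD11b- DCs for 220 (56.6%) and that of mϕ for 253 (65%). Of the 264 lower genes the counts were 238 (90.2%), 190 (72.0%) and 177 (67.0%). Among the 94 named genes that passed, 6 also differed between CD103+CD11b+ and CD103-CD11b+ DCs, a comparison that uses the same CD103+CD11b+ arrays and in which 0.537% of all genes passed. *Cd101* was higher by 4.60 than in CD103+CD11b- DCs and by 1.25 than in CD103-CD11b+ DCs, *Trem1* by 3.74 and 1.35, and *Cd209c* by 3.94 and 1.26. *Ifi205* differed by -3.88 and -1.25 and *Tgfbi* by -1.32 and -2.80, so that both were lowest in CD103+CD11b+ DCs of these 3. *Csf1r* differed by 1.88 and -1.74, with CD103+CD11b+ DCs between the others.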

How the data were processed

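RNA of sorted cells was amplified and hybridised to Affymetrix Mouse Gene 1.0 ST arrays. The deposited values are log2 signals that the authors background-corrected, quantile-normalised and summarised per probeset by RMA, which makes the array distributions alike, so a shift of all genes could not be seen. Of 35556 probesets, 21789 had 1 gene symbol, 1621 had several and 12146 had none listed. The probeset with the highest mean stood for each of 19938 genes. Array number and brightness limit the precision.

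Linear models of 9 arrays (3 DC populations) were fitted with limma 3.58.1 in R 4.3.3, with Benjamini-Hochberg adjustment over all genes, and tables were made with Python 3.11.15. The fits were tested on simulated data. Same-numbered arrays deviated from their population means together (correlations of 0.254, 0.353 and 0.280, against -0.209 to -0.072 for other pairs). Deviations cancel over the 3 arrays of a population, so positive values for same-numbered arrays make those of other pairs negative. The labels do not state what a number stands for, and the numbers were taken as a possible pairing. The main fit held no replicate block, so its SEs and p-values are unpaired, and the block was an alternative. The named genes were the sort genes, the 12 largest differences per direction, up to 4 passing members per list, fixed context genes and up to 8 genes per direction that were bright in one population and dim in the other. Genes outside this rule were named to account for a count, after their values were seen. The members and the lists were chosen with earlier results of these data known, so the counts of the lists are no independent result. Alternatives were the arrays in the fit, the replicate block, the scaling, the probeset rule, the thresholds, dim genes, array weights, a t-test and leaving out each array. Signals of similar genes (the Cd209, Clec4, Gbp, Ifitm, Pilr and Trem families) may be shared. Coordinates come from RefSeq on GRCm38.p6 and not from the arrays.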

Additional observations from a re-analysis of the deposited data

Results flagged for a closer look

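Probesets without a single gene symbol stood outside the comparison of genes and still held differences between CD103+CD11b+ and CD103+CD11b- DCs. Of 1621 probesets with several symbols, 14 passed the same limits, and of 12146 without a listed symbol, 112 passed. Signals of CD103+CD11b+ DCs were higher for 10 and lower for 4 of the first set, and higher for 55 and lower for 57 of the second.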

How the results depend on the processing

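The counts of 389 higher and 264 lower genes in CD103+CD11b+ DCs stayed within 1.5 times under most of 23 alternatives. They were 867 and 874 with no limit on size. When the size limit was part of the test (treat), at an adjusted p below 0.05, they were 164 and 100. A t-test on the 6 arrays, at an adjusted p below 0.05 and with no size limit, gave 581 and 611. Of these, 308 and 216 were among the 389 and 264. Of 94 named genes that passed, treat lost 18 and the t-test lost 8. Leaving out each array gave 377 to 406 higher and 259 to 276 lower genes. With the replicate block they were 399 and 267, and all 653 passing genes kept their call, as did every named gene that passed. Of the other listed genes, the block changed the calls of the markers *Prg2*, *Mzb1* and *Ly6d*, which then passed as higher. With limits of log2 7 and 5, 16 genes were bright in CD103+CD11b+ DCs and dim in CD103+CD11b- DCs, and 5 genes had the opposite pattern. Of the genes found with limits of log2 8 and 6, only *Cd101*, *Ccr1*, *Mgl2*, *Trem1* and *Sh2d1b1* stayed in the first set. In the second set, only *Rab7b* and *Cxcr3* stayed, so membership of these sets depends on the limits. Without the array with most acinar signal of each DC population (added after the data were seen) 367 and 243 genes passed. That fit had fewer arrays per population, which by itself can cost calls. Of the 94 named genes, 5 lost their call without some array (*Cxcl2*, *Ncf1*, *Nrros*, *Rab11a* and *Rab43*), and *Cxcl2* and *Ccl3* lost it when only the 6 arrays were fitted. Differences near 0 changed sign: *Fcgr1* was at -0.015 with median centring, -0.020 with cyclic loess, -0.019 without CD103+CD11b+ replicate 3 and -0.031 without CD103+CD11b- replicate 2, and *Zbtb46* at -0.030 with median centring, -0.112 and -0.015 without CD103+CD11b+ replicates 1 and 3 and -0.043 without CD103+CD11b- replicate 2. Over the fits that left out an array, *Fcgr1* ranged from -0.031 to 0.088 and *Zbtb46* from -0.112 to 0.207. The cause was not tested.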
